A study of Mus musculus with 24 samples.

Results

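The genes described here are 48 members of the Wnt pathway, chosen by symbol from the 56941 genes listed in the expression tables: 19 Wnt ligands, 10 frizzled receptors (Fzd), 4 secreted frizzled-related proteins (Sfrp), 4 Dickkopf antagonists (Dkk) and 11 further genes, namely the receptors Lrp5, Lrp6 and Ror2, the R-spondin Rspo3, the scaffolds Axin1 and Axin2, beta-catenin (Ctnnb1) and the nuclear factors Lef1, Tcf7, Tcf7l1 and Tcf7l2. The rule used symbols only, not measured values, but it was chosen with earlier results of these data known. The question was how these genes responded to optical exercise at 1, 4 and 10 Hz. Of the 48, 33 had enough reads to be tested.

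Wnt ligands are secreted, lipid-modified proteins that bind a frizzled receptor together with a coreceptor. In the canonical branch the coreceptor is Lrp5 or Lrp6, the destruction complex built on Axin and Apc stops degrading beta-catenin, and beta-catenin enters the nucleus and acts with the TCF/LEF factors on target genes. Other branches use Ror2 and frizzled receptors to steer cell polarity and calcium signalling without beta-catenin. In muscle the pathway is known for its roles in myoblast fate, in regeneration and at the neuromuscular junction.

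The tissues were muscle layers differentiated in wells from C2C12, an established mouse myoblast line. All of them, the controls included, carried the genotype ChR2::tdTomato, a blue-light-gated cation channel fused to a red fluorescent protein, and all were kept in differentiation medium with horse serum and insulin-like growth factor 1. Groups were an unstimulated Control and tissues paced by light at 1 Hz, 4 Hz or 10 Hz in a session of 60 min each day, with 6 libraries in each group and 24 in all. The Control tissues also twitched on their own, so that unstimulated does not mean without contraction, and the wells of a group were biological replicates of a single cell line. A parallel experiment with shorter sessions was not analysed here.

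Libraries held 8052369 to 18159144 estimated counts. Mitochondrial transcripts took 1.37 to 2.72% of the counts in the Control libraries, and 2 libraries at 1 Hz and 2 at 4 Hz went above 3%, up to 8.90% in replicate 3 at 4 Hz, so all counts were also made without those 4. The label calls the cells myoblasts, yet all 8 myotube markers were present, with a summed level of 10257 to 13029 CPM (counts scaled to library size) in the Control tissues, and none of the 8 was called at any frequency. Markers of unfused or reserve myoblasts summed to medians of 827, 850.5, 942 and 869 CPM in the Control, 1 Hz, 4 Hz and 10 Hz tissues, with 1 of 5 higher and 1 of 5 lower at both 1 and 4 Hz, and those of dividing cells to medians of 21.7, 28.5, 24.3 and 27.6, with 1 of 4 higher at 1 Hz, and 1 higher and 2 lower at 4 Hz. The part of either list in the results below was not tested. Of all tested genes 7.19% were called higher and 7.74% lower at 1 Hz, and 12.8% and 12.3% at 4 Hz. Lists of 5 and 4 genes are too short to be set against those shares. Fat cell and endothelial markers stayed at or under 0.556 CPM in every library and bone-forming cell markers at or under 4.58, while the 3 macrophage markers summed to 47.5 to 57.6 CPM in the Control tissues, 41.4 to 72.9 at 1 Hz, 46.8 to 67.2 at 4 Hz and 39.4 to 53.9 at 10 Hz, with 2 of the 3 at 0 in every Control library and the third, Cd68, not called.

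Of the 33 tested Wnt genes, 13 were called at 1 or 4 Hz against Control. The share of all tested genes called at either frequency is not given here. At 1 Hz alone 7.19% of all tested genes were higher and 7.74% lower, and at 4 Hz alone 12.8% and 12.3%. Fzd4, Fzd5 and the feedback gene Axin2 were upregulated at both frequencies, while Fzd2, Fzd3, Wnt10a, Wnt7b and the TCF/LEF factors Tcf7 and Lef1 were downregulated at both. Wnt10b was upregulated past both thresholds at 1 Hz, and Sfrp4 (higher), Lrp6 and Fzd9 (lower) passed them at 4 Hz, although no member was called between 1 and 4 Hz. No Wnt gene was called at 10 Hz. A gene was called when its adjusted p was under 0.05 and its absolute log2(fold change) over 0.5, in an edgeR quasi-likelihood fit to all 24 libraries with Benjamini-Hochberg adjustment over the 13315 genes tested. Since RNA was taken from whole wells, fewer cells of a type and less RNA per cell cannot be told apart in any of these values.

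At 1 Hz, 4 of the 33 tested members were upregulated (12.1%) and 6 were downregulated (18.2%), where 7.19% and 7.74% of all tested genes were. At 4 Hz, 4 were upregulated (12.1%) and 8 downregulated (24.2%), against 12.8% and 12.3% of all tested genes, so the upregulated share at 4 Hz was near that background. The median log2(fold change) of the 33 was -0.15 at 1 Hz and -0.06 at 4 Hz, beside 0.04 and 0.06 over all genes. With the adjusted p alone, 4 were higher and 10 lower at 1 Hz, where 19.2% and 18.1% of all genes passed, and 6 were higher and 11 lower at 4 Hz, where 27.5% and 23.9% passed. The 6 libraries of a frequency did not overlap the 6 Control libraries for 4 members above and 4 below at 1 Hz (14.1% of all genes did not overlap in either direction) and for 4 above and 8 below at 4 Hz (27.6% of all genes). Called members numbered 13 in all, of which 9 were called at both frequencies in the same direction, 3 higher and 6 lower, and none in opposite directions. That is 90% of the calls at 1 Hz and 75% of those at 4 Hz, in comparisons that share their Control libraries. The matching share over all tested genes is not given here, and 0 of all 13315 were called between 4 and 1 Hz. The overlap is therefore not read as particular to the members. Without the libraries high in mitochondrial counts, 5 in place of 6 were downregulated at 1 Hz, and the counts of upregulated members and of members downregulated at 4 Hz kept their size. The genes downregulated at 4 Hz were not all the same, since Fzd9 was lost (adjusted p = 0.0573) and Wnt9a was gained (-0.50, adjusted p = 0.000716).

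**Figure D1:**
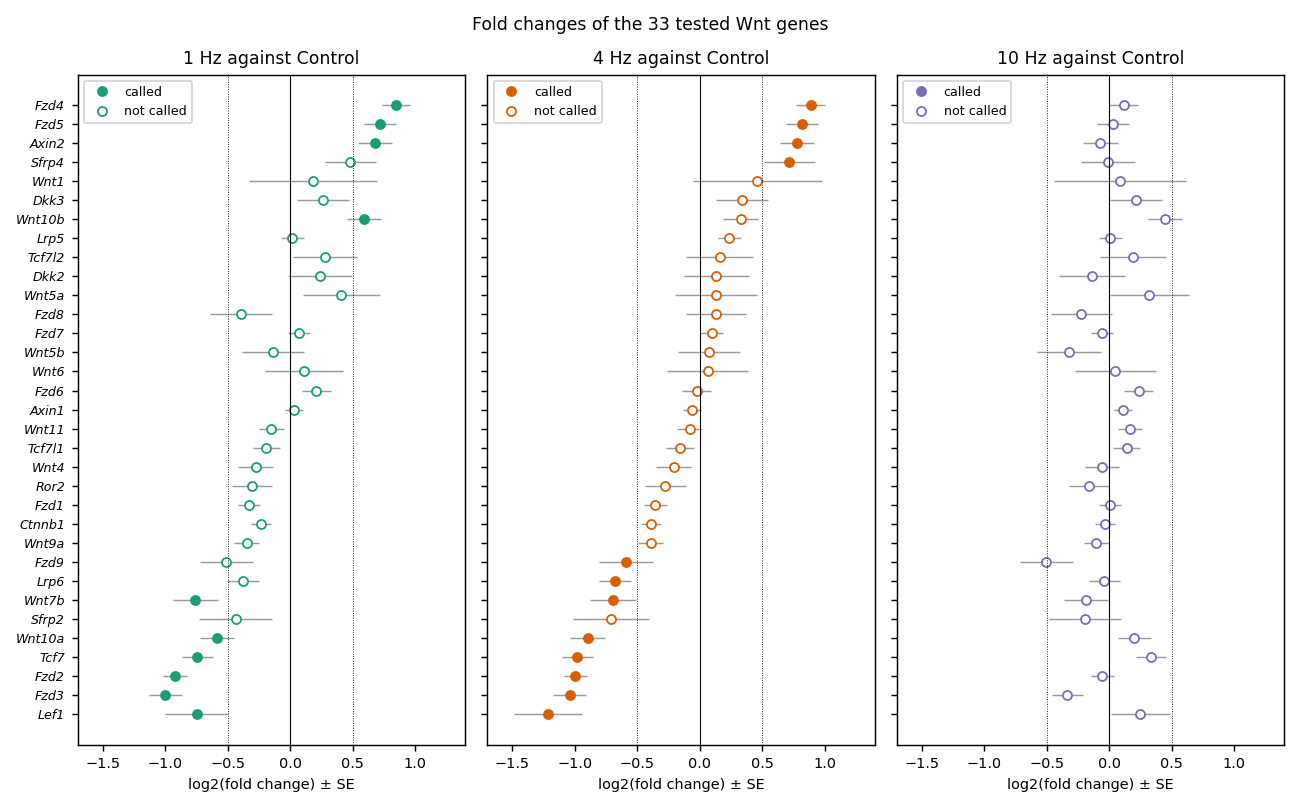
Log2(fold change) with its standard error (horizontal axis) of the 33 tested Wnt genes (vertical axis, sorted by the 4 Hz value) at 1, 4 and 10 Hz against Control, with 6 libraries in each group; filled points were called and dotted lines mark the threshold of 0.5. Filled points number 10 in the 1 Hz panel, 12 in the 4 Hz panel and 0 in the 10 Hz panel.

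The scale of measurement matters for this split. Values in CPM, counts scaled to library size with TMM factors, rest on factors that centre most genes on no change, whereas the deposited TPM, which are also divided by transcript length, shifted the median of all genes by -0.14 at 1 Hz and -0.21 at 4 Hz on log2(TPM + 1). On that scale 1 member was called higher and 10 lower at 1 Hz, and 0 higher and 12 lower at 4 Hz. With a pseudocount of 0.1 in place of 1, the split was 2 and 11 at 1 Hz and 2 and 14 at 4 Hz. The 8 genes called lower at 1 or 4 Hz were also called lower at that frequency on both TPM scales, whereas of the higher calls only Fzd4 at 1 Hz passed on both. Wnt9a and Sfrp2 at both frequencies, Lrp6 and Fzd9 at 1 Hz, and Ctnnb1 and Fzd1 at 4 Hz were lower past both thresholds on either TPM scale and not in the edgeR fit described. Ratios of genes within a library do not depend on the scaling between libraries and are given beside the genes.

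Levels differed widely between the genes. Per length, beta-catenin was the most abundant member in the Control tissues at 206 ± 25 TPM (mean ± SD, n = 6), above Axin1 at 40.6 ± 2.0 and Lrp5 at 34.7 ± 1.1. Of the ligands, Wnt9a led at 19.4 ± 2.2 TPM, followed by Wnt10a at 10.8 ± 2.1 and Wnt11 at 7.93 ± 0.66, and these supplied 39.4, 22.6 and 16.4% of the summed ligand TPM (medians over the 6 libraries). Among the frizzled receptors, Fzd7 led at 25.5 ± 2.2 TPM, ahead of Fzd6 at 16.7 ± 1.7, Fzd2 at 13.7 ± 2.3 and Fzd1 at 12.2 ± 1.0, with the libraries of Fzd2 overlapping those of both Fzd6 and Fzd1. Wnt10a and Wnt11 overlapped as well, and Wnt9a lay above both in every library. The Sfrp genes were carried by Sfrp2 at 5.21 ± 1.8 TPM and Sfrp4 at 2.61 ± 0.61, and the Dkk genes by Dkk3 at 2.35 ± 0.72 and Dkk2 at 0.992 ± 0.35.

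The other 15 members were too low to test. Dkk1, Dkk4, Fzd10, Wnt3a, Wnt7a and Wnt9b had 0 counts in all 24 libraries, which allows at most 0.373 CPM in the shallowest library and 0.0113 CPM over all libraries (3 counts, covering counting error only). Rspo3 had 79 counts in all, spread over 23 libraries, and Sfrp1 had 46 over 17. Wnt2, Wnt2b, Wnt3, Wnt8a, Wnt8b, Wnt16 and Sfrp5 had between 1 and 8 counts in total. Wnt7a, a ligand known to act on muscle stem cells through Fzd7, was thus not detectable at this depth in these cultures, while Fzd7 was the leading receptor. Wnt3a, the ligand most often added to cultured cells to activate beta-catenin, was not detectable either.

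**Figure D2:**
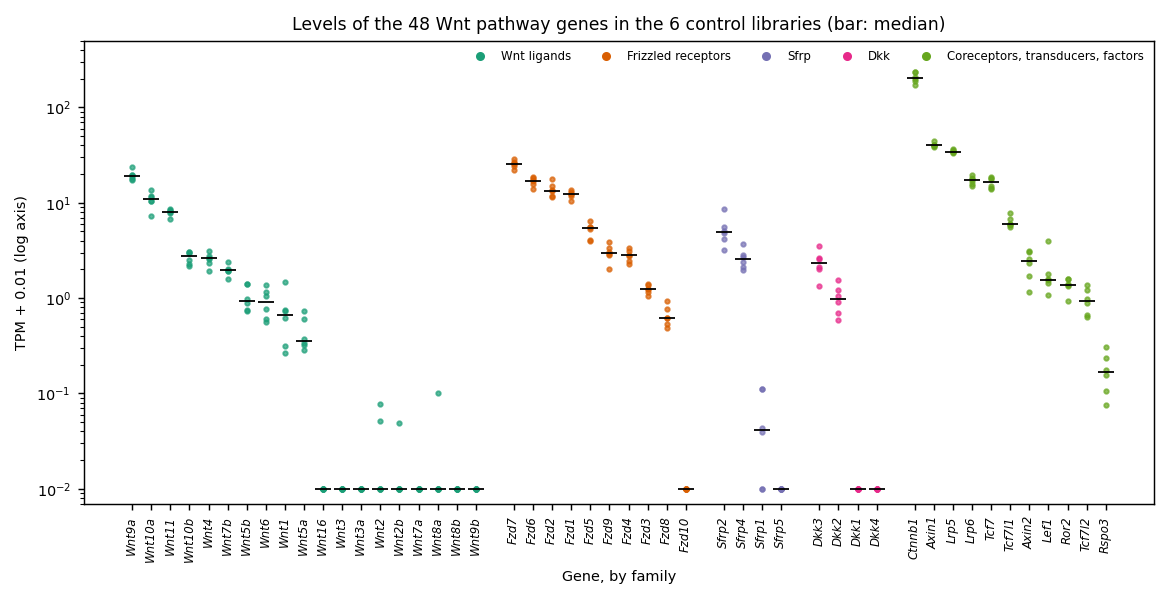
TPM (log axis, with 0.01 added) of the 48 Wnt genes in the 6 Control libraries, grouped by family (horizontal axis); each point is a library and each bar the median. Beta-catenin lies near 206 TPM, the leading ligand Wnt9a near 19.4 and the leading receptor Fzd7 near 25.5, and 10 genes are at 0 in all 6 of these libraries.

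Among the ligands, Wnt10a fell at both low frequencies while Wnt10b, its close relative, rose at 1 Hz. Wnt10a, known for its part in tooth and hair development, ran from 11.1 to 20.0 (median 16.4) CPM in the Control tissues, from 9.64 to 11.8 (median 11.1) at 1 Hz, from 5.71 to 10.9 (median 9.09) at 4 Hz and from 14.6 to 23.2 (median 18.8) at 10 Hz. All 6 libraries at 4 Hz lay below every Control library, 3 did at 1 Hz, and at 10 Hz 1 library lay above the Control range. The log2(fold change) of Wnt10a was -0.59 ± 0.13 (SE, adjusted p = 0.00142) at 1 Hz and -0.90 ± 0.14 (SE, adjusted p = 1e-05) at 4 Hz. Wnt7b, a ligand of lung and kidney development, moved the same way. Its normalised counts ranged from 3.38 to 4.56 (median 3.92) CPM in the Control tissues, from 1.39 to 3.17 (median 2.29) at 1 Hz, from 2.03 to 3.29 (median 2.22) at 4 Hz and from 2.5 to 4.23 (median 3.39) at 10 Hz. Every library at 1 and 4 Hz was below every Control library, and 3 of 6 were at 10 Hz. The difference from Control was -0.76 ± 0.18 (SE, adjusted p = 0.00195) at 1 Hz and -0.69 ± 0.18 (SE, adjusted p = 0.00295) at 4 Hz.

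Wnt10b, known as a repressor of fat cell formation, ran from 3.48 to 4.84 (median 4.14) CPM in the Control tissues, from 5.37 to 8.63 (median 5.92) at 1 Hz, from 3.98 to 6.54 (median 5.28) at 4 Hz and from 4.62 to 6.42 (median 5.65) at 10 Hz. The 6 libraries at 1 Hz lay above all Control libraries, as did 4 at 4 Hz and 5 at 10 Hz. On the log2 scale it changed by 0.59 ± 0.13 (SE, adjusted p = 0.00129) at 1 Hz and 0.33 ± 0.14 (SE, adjusted p = 0.0491) at 4 Hz, the latter under the threshold of 0.5. Replicate 3 at 1 Hz was the highest library, and without it the 1 Hz value was 0.47 (adjusted p = 0.00635) and no longer called. On the TPM scales its adjusted p at 1 Hz was 0.079 and 0.0833, so the call ended there too. Wnt10b overlaps Wnt1 on the opposite strand on chromosome 15, and Wnt1 itself had 0.685 ± 0.44 TPM in the Control tissues and log2(fold change) values of 0.18 at 1 Hz and 0.46 at 4 Hz (adjusted p = 0.801 and 0.471).

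The leading ligand Wnt9a ran from 37.0 to 46.6 (median 39.2) CPM in the Control tissues, from 25.0 to 37.9 (median 31.2) at 1 Hz, from 27.1 to 35.6 (median 30.4) at 4 Hz and from 31.2 to 44.3 (median 36.9) at 10 Hz. At 4 Hz all 6 libraries lay below the Control range and at 1 Hz 5 did. With a log2(fold change) of -0.35 ± 0.10 (SE, adjusted p = 0.00885) at 1 Hz and -0.39 ± 0.10 (SE, adjusted p = 0.00242) at 4 Hz, it passed the threshold on p and not that on size, which it passed at 4 Hz without the 4 libraries high in mitochondrial counts (-0.50, adjusted p = 0.000716). Wnt11, a ligand of the polarity branch, ran from 7.29 to 8.55 (median 7.82) CPM in the Control tissues, from 5.94 to 9.40 (median 6.87) at 1 Hz, from 6.82 to 8.27 (median 7.47) at 4 Hz and from 7.99 to 10.3 (median 8.75) at 10 Hz. At 1 Hz 5 libraries lay below the Control range and 1 above it, and at 10 Hz 4 lay above it. Wnt11 was not called, with a log2(fold change) of -0.15 ± 0.10 (SE, adjusted p = 0.235) at 1 Hz and -0.08 ± 0.10 (SE, adjusted p = 0.519) at 4 Hz. The remaining tested ligands, Wnt1, Wnt4, Wnt5a, Wnt5b and Wnt6, had mean levels between 0.433 and 2.56 TPM in the Control tissues, and none was called.

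Summed over the 19 ligands, the TPM was 48.4 ± 3.16 in the Control tissues, 34.9 ± 6.07 at 1 Hz, 30.8 ± 4.13 at 4 Hz and 48.7 ± 6.0 at 10 Hz (mean ± SD, n = 6). That is 0.721, 0.635 and 1.01 times the Control mean. In CPM the ratios were 0.819, 0.781 and 1.02, so the lower sums at 1 and 4 Hz did not depend on the scale. Within the sum, the median share of Wnt10a went from 22.6% in the Control tissues to 18.2% at 1 Hz and 15.5% at 4 Hz and that of Wnt10b from 5.50% to 10.1% and 9.15%, while Wnt9a kept 39.4, 38.9 and 38.2%. These sums and shares are descriptions without a test.

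Among the receptors, Fzd4 and Fzd5 rose and Fzd2 and Fzd3 fell at 1 and 4 Hz. Fzd2, a receptor for Wnt5a-type ligands, ran from 26.3 to 39.6 (median 30.8) CPM in the Control tissues, from 14.3 to 19.1 (median 16.8) at 1 Hz, from 15 to 17.0 (median 15.8) at 4 Hz and from 26.4 to 32.2 (median 31.0) at 10 Hz. No library at 1 or 4 Hz reached the lowest Control library, and the 10 Hz libraries stayed inside the Control range. Its log2(fold change) of -0.92 ± 0.09 (SE, adjusted p = 4.74e-08) at 1 Hz and -0.99 ± 0.09 (SE, adjusted p = 1.02e-08) at 4 Hz had the smallest adjusted p of all members at both frequencies. Fzd3, known for axon guidance, ran from 8.26 to 11.6 (median 10.3) CPM in the Control tissues, from 4.82 to 6.34 (median 4.97) at 1 Hz, from 3.78 to 5.89 (median 5.15) at 4 Hz and from 5.93 to 10.1 (median 8.33) at 10 Hz. Again the 1 and 4 Hz libraries all lay below the Control range, and 3 of the 10 Hz libraries did. The Fzd3 log2(fold change) was -1.0 ± 0.13 (SE, adjusted p = 2.21e-06) at 1 Hz and -1.04 ± 0.13 (SE, adjusted p = 7.06e-07) at 4 Hz. Fzd2 is at chr11:102495222-102498884 on the plus strand and Fzd3 at chr14:65429573-65499933 on the minus strand (GRCm39).

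Fzd4, the receptor for norrin in retinal vessels, ran from 9.33 to 14.6 (median 12.5) CPM in the Control tissues, from 18.8 to 24.9 (median 22.2) at 1 Hz, from 18.5 to 26.7 (median 22.3) at 4 Hz and from 10.9 to 15.2 (median 13.3) at 10 Hz. All 12 libraries at 1 and 4 Hz were above every Control library, and 2 at 10 Hz were. Against Control, Fzd4 had a log2(fold change) of 0.84 ± 0.11 (SE, adjusted p = 3.16e-06) at 1 Hz and 0.89 ± 0.11 (SE, adjusted p = 7.67e-07) at 4 Hz. Fzd5, a receptor with known roles in eye and gut, ran from 16.6 to 29.0 (median 24.1) CPM in the Control tissues, from 30.7 to 46.9 (median 36.9) at 1 Hz, from 34.1 to 48.3 (median 40.1) at 4 Hz and from 20.2 to 28.9 (median 22.1) at 10 Hz. Here too the 1 and 4 Hz libraries were all above the Control range, with the 10 Hz libraries inside it. Fzd5 was upregulated by 0.72 ± 0.13 (SE, adjusted p = 0.000118) at 1 Hz and 0.81 ± 0.13 (SE, adjusted p = 1.36e-05) at 4 Hz on the log2 scale. On log2(TPM + 1) the changes of Fzd4 at 4 Hz (0.44, adjusted p = 0.0102) and of Fzd5 at both frequencies (0.46, adjusted p = 0.0286, and 0.43, adjusted p = 0.0252) were under 0.5. Fzd4 lies at chr7:89053563-89062342 on the plus strand and Fzd5 at chr1:64769717-64776934 on the minus strand.

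Fzd9, a receptor linked to bone formation, ran from 2.86 to 5.49 (median 4.20) CPM in the Control tissues, from 0.885 to 4.74 (median 2.83) at 1 Hz, from 2.23 to 3.04 (median 2.84) at 4 Hz and from 2.24 to 3.43 (median 2.99) at 10 Hz. At both 1 and 4 Hz 3 libraries lay below the Control range. Against Control it changed by -0.59 ± 0.22 (SE, adjusted p = 0.0249) at 4 Hz on the log2 scale, which was called, and by -0.51 ± 0.21 (SE, adjusted p = 0.0575) at 1 Hz, which was not. The call at 4 Hz was lost without Control replicate 4 (adjusted p = 0.0669) or without the 4 libraries high in mitochondrial counts (adjusted p = 0.0573). At 1 Hz it passed without Control replicate 2, 1 Hz replicate 1 or 1 Hz replicate 6, in turn, with values of -0.61, -0.68 and -0.62, with DESeq2 (-0.53, adjusted p = 0.0454) and with the replicate number as a block (-0.54, adjusted p = 0.0496), so its 1 Hz value lies at the threshold.

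The leading receptors stayed nearer to their Control levels. Fzd7 ran from 66.4 to 84.6 (median 73.3) CPM in the Control tissues, from 59.5 to 96.5 (median 80.3) at 1 Hz, from 69.0 to 85.5 (median 79.7) at 4 Hz and from 63.7 to 80.3 (median 71.9) at 10 Hz. Fzd6 ran from 23.1 to 30.0 (median 26.6) CPM in the Control tissues, from 21.0 to 37.0 (median 30.3) at 1 Hz, from 21.1 to 31.1 (median 25.2) at 4 Hz and from 26.3 to 37.5 (median 31.3) at 10 Hz. For both, every stimulated group overlapped the Control range, and their log2(fold change) values were 0.07 and 0.21 at 1 Hz and 0.09 and -0.03 at 4 Hz, with adjusted p between 0.161 and 0.873. Their sign is not settled, since on the TPM scales both were negative at both frequencies. Fzd1 ran from 26.5 to 36.8 (median 33.5) CPM in the Control tissues, from 22.4 to 30.3 (median 25.8) at 1 Hz, from 21.7 to 28.7 (median 25.7) at 4 Hz and from 29.7 to 36.7 (median 32.7) at 10 Hz. At 1 Hz 3 libraries, and at 4 Hz 4, lay below the Control range. Its differences of -0.33 ± 0.09 (SE, adjusted p = 0.00573) at 1 Hz and -0.36 ± 0.09 (SE, adjusted p = 0.00218) at 4 Hz, on the log2 scale, passed the threshold on p and not that on size. Fzd8, at 0.651 TPM in the Control tissues, was not called.

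The opposite moves could also be read within single libraries, where the scaling between libraries does not enter. The ratio of Fzd4 to Fzd2 in TPM ran from 0.138 to 0.294 (median 0.200) in the Control tissues, from 0.642 to 0.788 (median 0.688) at 1 Hz, from 0.656 to 0.857 (median 0.765) at 4 Hz and from 0.188 to 0.306 (median 0.229) at 10 Hz. Fzd5 over Fzd2 went from 0.275 to 0.549 (median 0.361) in the Control tissues, 0.826 to 1.60 (median 1.22) at 1 Hz, 1.08 to 1.65 (median 1.31) at 4 Hz and 0.334 to 0.572 (median 0.370) at 10 Hz. In both ratios each 1 and 4 Hz library exceeded each Control and each 10 Hz library. The genes of each ratio were paired because they were called in opposite directions, so the separation is a description and was not tested. Over all 10 frizzled genes the summed TPM was 0.857 times the Control mean at 1 Hz and 0.791 times at 4 Hz, while the summed CPM was 1.02 and 1.01 times, so the total depended on the scale. Within the TPM sum the median share of Fzd2 went from 17.4% to 8.99% at 1 Hz and 8.75% at 4 Hz, and those of Fzd4 and Fzd5 went from 3.54 and 6.57% to 6.46 and 10.6% at 1 Hz and 6.13 and 11.6% at 4 Hz.

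**Figure D3:**
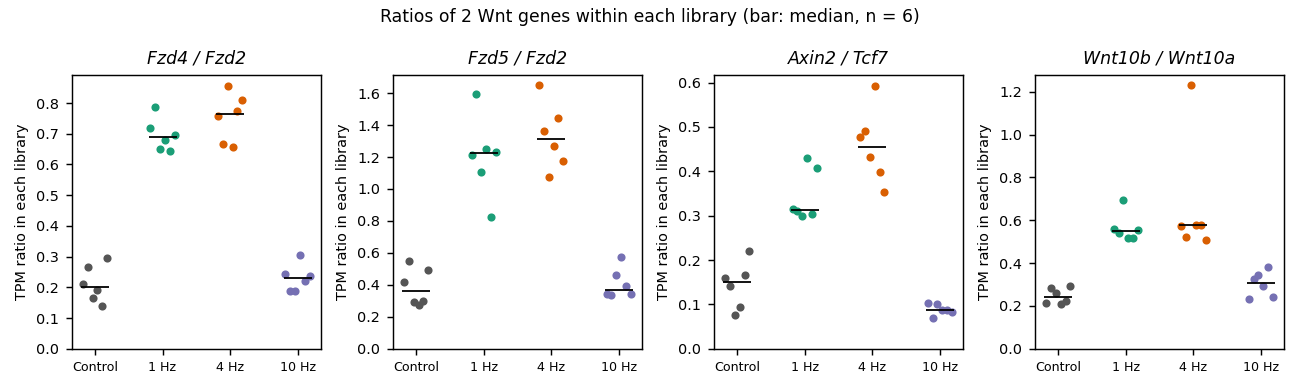
Ratio of the TPM of 2 Wnt genes in each library (vertical axis) for Fzd4 over Fzd2, Fzd5 over Fzd2, Axin2 over Tcf7 and Wnt10b over Wnt10a, by group (horizontal axis); points are libraries and bars medians of 6. In all 4 panels the 1 and 4 Hz libraries lie above every Control library, while the 10 Hz medians are 0.229, 0.370, 0.0870 and 0.308, against Control medians of 0.200, 0.361, 0.150 and 0.243.

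The coreceptor Lrp6 fell at 4 Hz and its paralog Lrp5 did not. Lrp6 ran from 76.1 to 93.2 (median 85.6) CPM in the Control tissues, from 48.4 to 85.3 (median 61.7) at 1 Hz, from 39.8 to 68.1 (median 52.4) at 4 Hz and from 67.0 to 103 (median 84.1) at 10 Hz. Below the Control range lay all 6 libraries at 4 Hz and 4 at 1 Hz. The log2(fold change) of Lrp6 was -0.68 ± 0.13 (SE, adjusted p = 0.00012) at 4 Hz, and at 1 Hz it was -0.38 ± 0.13 (SE, adjusted p = 0.0215), under the threshold on size. Lrp5, known from inherited high and low bone mass, ran from 107 to 119.9 (median 114) CPM in the Control tissues, from 87.6 to 149 (median 109.7) at 1 Hz, from 116 to 150.3 (median 135) at 4 Hz and from 106 to 123 (median 111) at 10 Hz. At 4 Hz 5 libraries were above the Control range and at 1 Hz the groups overlapped, with log2(fold change) values of 0.24 ± 0.09 (SE, adjusted p = 0.0339) and 0.02 ± 0.09 (SE, adjusted p = 0.895), and on the TPM scales its sign was negative at both. Ror2, the receptor of the beta-catenin-independent branch, had 1.36 ± 0.24 TPM in the Control tissues and was not called.

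Of the secreted antagonists, Sfrp4 rose at 4 Hz. Sfrp4, which binds Wnt ligands outside the cell, ran from 1.88 to 3.19 (median 2.41) CPM in the Control tissues, from 1.88 to 4.76 (median 3.25) at 1 Hz, from 3.28 to 5.09 (median 4.05) at 4 Hz and from 1.43 to 3.19 (median 2.53) at 10 Hz. All 6 libraries at 4 Hz and 3 at 1 Hz lay above every Control library. For Sfrp4 the log2(fold change) was 0.71 ± 0.20 (SE, adjusted p = 0.00516) at 4 Hz and 0.48 ± 0.20 (SE, adjusted p = 0.0626) at 1 Hz. It passed at 1 Hz without Control replicate 1 (0.56, adjusted p = 0.0429) or without 1 Hz replicate 5 (0.61, adjusted p = 0.013), and on log2(TPM + 1) it missed the size threshold at 4 Hz (0.46). Sfrp2 ran from 3.32 to 10.6 (median 4.97) CPM in the Control tissues, from 2.20 to 8.47 (median 3.55) at 1 Hz, from 1.75 to 5.37 (median 3.65) at 4 Hz and from 4.40 to 5.55 (median 4.84) at 10 Hz. The highest library of the Control and of the 1 Hz tissues was replicate 2 in both, far above the others of its group, and 3 libraries at each of 1 and 4 Hz lay below the Control range. The Sfrp2 log2(fold change) of -0.44 ± 0.29 (SE, adjusted p = 0.247) at 1 Hz and -0.71 ± 0.30 (SE, adjusted p = 0.0539) at 4 Hz was not called. Without 1 Hz replicate 2 the value at 1 Hz was -0.76 (adjusted p = 0.0335) and passed, and at 4 Hz it passed when Control replicate 1, 4 or 6 or 4 Hz replicate 3, 4 or 5 was left out, between -0.77 and -0.89, with DESeq2 (-0.72, adjusted p = 0.0441), with DESeq2 size factors in edgeR (-0.74, adjusted p = 0.0451), with a stricter filter on counts (-0.72, adjusted p = 0.0455) and with the replicate number as a block (-0.64, adjusted p = 0.0449), so that its 4 Hz value lies at the threshold as well. Sfrp4 made up a median of 33.6% of the summed Sfrp TPM in the Control tissues, 45.7% at 1 Hz, 61.3% at 4 Hz and 40.6% at 10 Hz.

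Dkk3, the leading Dickkopf gene, ran from 2.67 to 7.52 (median 4.91) CPM in the Control tissues, from 3.82 to 8.76 (median 5.75) at 1 Hz, from 4.71 to 8.41 (median 6.33) at 4 Hz and from 4.22 to 7.45 (median 5.95) at 10 Hz. Dkk2, a ligand of Lrp6, ran from 1.43 to 3.46 (median 2.24) CPM in the Control tissues, from 2.01 to 5.53 (median 2.24) at 1 Hz, from 2.05 to 3.62 (median 2.38) at 4 Hz and from 1.01 to 2.96 (median 2.17) at 10 Hz. The 4 groups overlapped for both genes, and neither was called: Dkk3 had a log2(fold change) of 0.26 ± 0.21 (SE, adjusted p = 0.326) at 1 Hz and 0.34 ± 0.21 (SE, adjusted p = 0.18) at 4 Hz. For Dkk2 it was 0.24 ± 0.25 (SE, adjusted p = 0.487) at 1 Hz and 0.13 ± 0.26 (SE, adjusted p = 0.692) at 4 Hz. Dkk3 passed at 4 Hz without Control replicate 2 (0.51, adjusted p = 0.0479).

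Inside the cell, the feedback scaffold Axin2 rose while beta-catenin and Axin1 were not called. Axin2, a component of the destruction complex and itself a target of beta-catenin, ran from 2.93 to 6.01 (median 5.26) CPM in the Control tissues, from 6.65 to 8.79 (median 7.96) at 1 Hz, from 7.76 to 9.98 (median 8.02) at 4 Hz and from 3.92 to 5.23 (median 4.80) at 10 Hz. Each library at 1 and 4 Hz was above each Control library, and the 10 Hz libraries were within the Control range. Axin2 thus had a log2(fold change) of 0.68 ± 0.13 (SE, adjusted p = 0.000336) at 1 Hz and 0.78 ± 0.13 (SE, adjusted p = 4.22e-05) at 4 Hz. The call rests on the count scale: on log2(TPM + 1) the values were 0.23 (adjusted p = 0.308) and 0.29 (adjusted p = 0.159), with mean levels of 2.31 ± 0.78, 2.83 ± 0.63 and 2.99 ± 0.80 TPM in the Control, 1 Hz and 4 Hz tissues. Beta-catenin, Ctnnb1, ran from 322 to 385 (median 359) CPM in the Control tissues, from 263 to 338 (median 313) at 1 Hz, from 237 to 304 (median 279.7) at 4 Hz and from 315 to 396 (median 344) at 10 Hz. At 4 Hz all 6 libraries, and at 1 Hz 4, lay under the lowest Control library. Its log2(fold change) of -0.23 ± 0.08 (SE, adjusted p = 0.0212) at 1 Hz and -0.39 ± 0.08 (SE, adjusted p = 0.000233) at 4 Hz was under the size threshold, which it passed at 4 Hz on log2(TPM + 1) (-0.71, adjusted p = 0.000108). Axin1, the constitutive scaffold, ran from 73.9 to 83.6 (median 80.6) CPM in the Control tissues, from 67.9 to 94.8 (median 81.1) at 1 Hz, from 68.5 to 86.5 (median 75.2) at 4 Hz and from 81.0 to 93.5 (median 85.9) at 10 Hz. The groups overlapped, and the log2(fold change) was 0.03 ± 0.07 (SE, adjusted p = 0.768) at 1 Hz and -0.06 ± 0.07 (SE, adjusted p = 0.493) at 4 Hz.

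The TCF/LEF factors, which place beta-catenin on DNA, fell at 1 and 4 Hz where they were called. Tcf7 ran from 20.4 to 26.7 (median 23.2) CPM in the Control tissues, from 9.03 to 17.6 (median 15.3) at 1 Hz, from 9.79 to 13.7 (median 12) at 4 Hz and from 27.9 to 31.2 (median 29.6) at 10 Hz. Its libraries at 1 and 4 Hz were all below the Control range and those at 10 Hz all above it. The log2(fold change) of Tcf7 was -0.74 ± 0.12 (SE, adjusted p = 4.77e-05) at 1 Hz and -0.98 ± 0.13 (SE, adjusted p = 8.06e-07) at 4 Hz. Lef1 ran from 1.78 to 3.38 (median 2.71) CPM in the Control tissues, from 1.07 to 2.77 (median 1.46) at 1 Hz, from 0.696 to 2.05 (median 0.863) at 4 Hz and from 2.14 to 4.36 (median 3.11) at 10 Hz. At 4 Hz 5 libraries and at 1 Hz 4 libraries lay below every Control library. Its log2(fold change) of -1.22 ± 0.27 (SE, adjusted p = 0.000676) at 4 Hz was the most negative of the members, and at 1 Hz it was -0.75 ± 0.26 (SE, adjusted p = 0.0229). The call at 1 Hz was lost without Control replicate 6 (adjusted p = 0.0514) and without the 4 libraries high in mitochondrial counts (-0.59, adjusted p = 0.0963). Tcf7l1, at 6.31 ± 0.81 TPM in the Control tissues, and Tcf7l2, at 0.945 ± 0.29, were not called, and the ratio of Tcf7 to Tcf7l1 had medians of 2.69, 1.72, 1.5 and 2.81 in the Control, 1 Hz, 4 Hz and 10 Hz tissues. Axin2 over Tcf7 in TPM ran from 0.0758 to 0.220 (median 0.150) in the Control tissues, 0.298 to 0.429 (median 0.313) at 1 Hz, 0.354 to 0.592 (median 0.455) at 4 Hz and 0.0695 to 0.103 (median 0.0870) at 10 Hz.

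**Figure D4:**
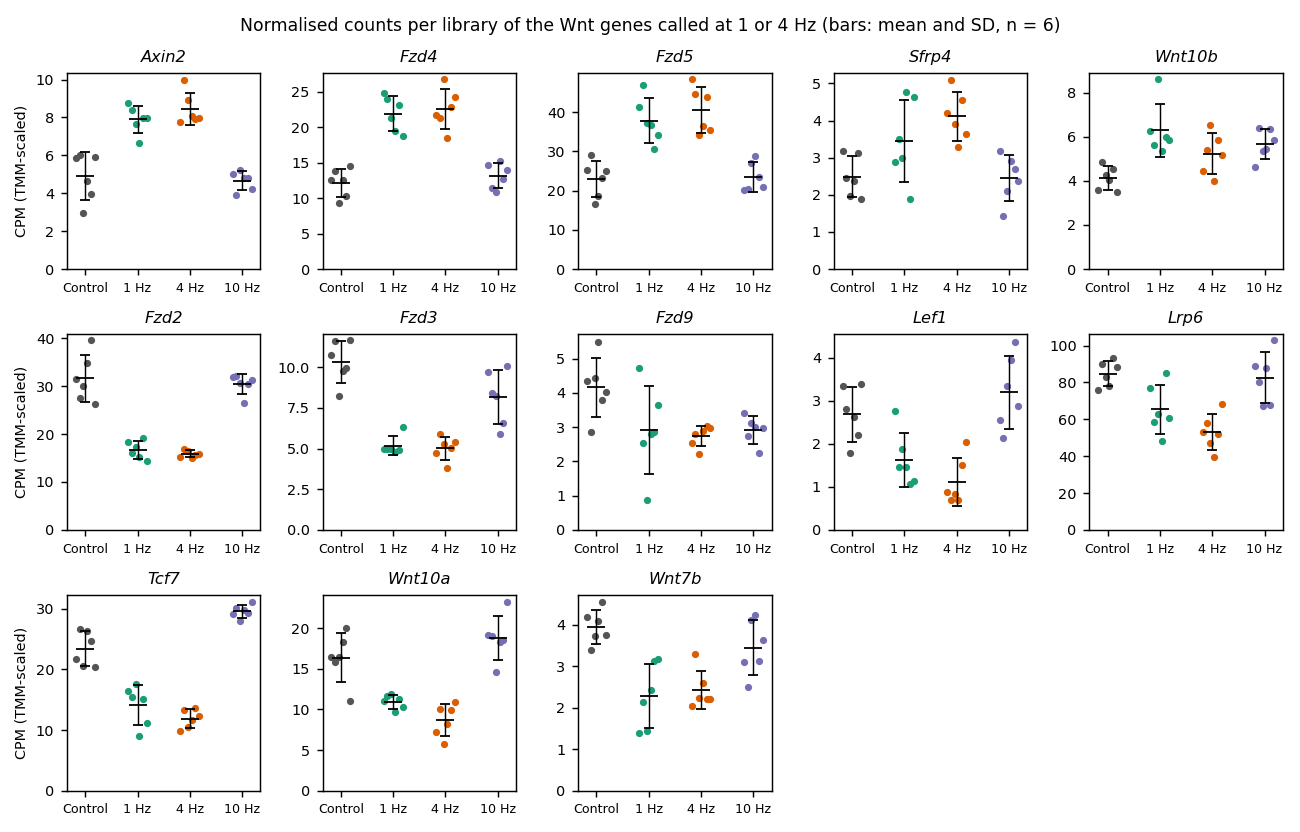
Normalised counts (CPM, TMM-scaled, vertical axis from 0) of the 13 Wnt genes called at 1 or 4 Hz, by group (horizontal axis); points are libraries, bars mean and SD of 6. The higher genes Axin2, Fzd4 and Fzd5 and the lower genes Fzd2, Fzd3, Tcf7 and Wnt7b show no overlap between the Control libraries and those at 1 or 4 Hz.

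Axin2 and Lef1 are classical direct targets of beta-catenin and TCF/LEF, which bind a short core, and they moved in opposite directions, so the sequence before their start sites is shown. Promoters of 300 bases (250 before and 50 after the start) were taken from RefSeq (GRCm38.p6) and placed on GRCm39 by exact match, and 32 of the 48 members had at least 1. Windows of 200 bases, from 250 to 51 bases before the start, that hold no annotated exon follow, all on the plus strand. The first is before Axin2 (chr11:108810925-108811124, 66% GC, 14 CpG pairs), the second before an internal Lef1 start (chr3:130906190-130906389, 51.5% GC, 4 CpG pairs) and the third before another internal Lef1 start (chr3:130949693-130949892, 46% GC, 5 CpG pairs). The Lef1 windows at the start of the annotated gene (from chr3:130903696 and chr3:130903722) lie in annotated exons and are not printed. Their promoters held 0 cores. Capitals mark a TCF/LEF core.
Axin2: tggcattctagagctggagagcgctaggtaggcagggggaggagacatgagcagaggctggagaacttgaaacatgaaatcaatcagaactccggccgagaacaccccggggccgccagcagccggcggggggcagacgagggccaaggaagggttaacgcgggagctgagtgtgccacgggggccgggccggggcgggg
Lef1, first internal start: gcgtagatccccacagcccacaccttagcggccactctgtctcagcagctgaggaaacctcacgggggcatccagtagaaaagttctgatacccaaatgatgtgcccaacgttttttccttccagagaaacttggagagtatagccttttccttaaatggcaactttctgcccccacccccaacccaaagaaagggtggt
Lef1, second internal start: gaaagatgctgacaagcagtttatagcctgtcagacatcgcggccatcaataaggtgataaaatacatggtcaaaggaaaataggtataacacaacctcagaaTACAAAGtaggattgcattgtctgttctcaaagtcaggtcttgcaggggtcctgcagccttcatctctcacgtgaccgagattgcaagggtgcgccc
The core was searched on both strands as CTTTGAA or as CTTTGAT, and likewise as CTTTGTA or as CTTTGTT. It occurred in 7 of 41 member promoters, where 16.9% of 32544 distinct promoters held it, so the share among the members was near that of promoters in general. The 7 were those of Dkk1, Fzd7, Lef1, Tcf7l2, Wnt11, Wnt3 and Wnt5b. Of the 9 genes called at both 1 and 4 Hz, 5 had a promoter (Axin2, Fzd4, Fzd5, Lef1 and Tcf7) and 1, that of the second internal Lef1 start, held a core, printed as TACAAAG on the shown strand and starting 147 bases before the start. These letters are a description of the window and say nothing about binding.

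In the annotation (GENCODE M39, GRCm39) Axin2 spans chr11:108811169-108841609 and Tcf7 chr11:52143107-52174619, both on chromosome 11, Lef1 chr3:130903919-131018005, Lrp6 chr6:134423439-134544212, Sfrp4 chr13:19807274-19817164, Fzd9 chr5:135277792-135280084, Wnt10a chr1:74830675-74844355, Wnt10b chr15:98668593-98690045 and Wnt7b chr15:85419638-85466674. Wnt6 and Wnt10a lie 5700 bases apart on the same strand of chromosome 1, and Wnt10a was called while Wnt6 was not, at 0.908 TPM in the Control tissues. Of the 13 called genes, 11 share exonic bases with a gene on the opposite strand, all but Fzd4 and Sfrp4, as do 23 of the 33 tested. The library kit kept strand, but whether reads were counted by strand is not given in the sources used here, so reads of such pairs may not be separable.

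At 10 Hz no member was called in either direction, where 0.015% of all tested genes were higher and 0.0225% lower. DESeq2 gave 0 as well. Beside 1074 of all 13315 tested genes, 4 of the 33 members had an unadjusted p under 0.05. These were Wnt10b at 0.45 ± 0.14 (adjusted p = 0.26), Tcf7 at 0.34 ± 0.12 (adjusted p = 0.416), Fzd3 at -0.33 ± 0.12 (adjusted p = 0.454) and Fzd9 at -0.50 ± 0.21 (adjusted p = 0.54). Tcf7 was the 1 member whose 10 Hz libraries all lay outside the Control range, above it, beside 1.64% of all genes that did not overlap in either direction. Over the 33 genes the log2(fold change) ran from -0.50 to 0.45 with a median of 0.01, equal to that of all genes at this precision.

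The frequencies were also compared with each other. Between 4 and 1 Hz 0 members and 0 genes of all tested were called by edgeR (0%), and 0 members by DESeq2. An unadjusted p under 0.05 was reached by 4 members and by 1465 of all 13315 tested genes. At 10 Hz against 1 Hz, 6 members were higher and 3 lower, beside 5.85% and 4.99% of all genes. The higher ones were Tcf7 at 1.08 ± 0.12 (adjusted p = 7.21e-07), Lef1 at 1.00, Fzd2 at 0.87, Wnt10a at 0.79, Fzd3 at 0.66 and Wnt7b at 0.57. Lower were Axin2 at -0.75 ± 0.14 (adjusted p = 0.000282), Fzd4 at -0.73 and Fzd5 at -0.69. These are the 9 genes called at both 1 and 4 Hz against Control, and the comparisons share the 1 Hz libraries.

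At 10 Hz against 4 Hz, 7 members were higher and 4 lower, beside 10.6% of all genes in each direction. Tcf7 at 1.31 ± 0.13 (adjusted p = 2.45e-08), Lef1 at 1.46 ± 0.27 (adjusted p = 0.000146) and Wnt10a at 1.10 ± 0.14 (adjusted p = 1.32e-06) were higher by the most. Fzd2, Fzd3, Lrp6 and Wnt7b were higher by 0.94, 0.71, 0.64 and 0.50 on the log2 scale. Axin2 at -0.85, Fzd5 at -0.79, Fzd4 at -0.77 and Sfrp4 at -0.73 were lower. Without the 4 libraries high in mitochondrial counts, Lrp6 was lower at 4 Hz than at 1 Hz (-0.52, adjusted p = 0.0273), the 1 call between those frequencies, and Wnt7b was no longer called higher at 10 Hz than at 4 Hz.

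Beyond the 48 members, 81 of 101 further pathway genes could be tested, in 5 lists that were drawn up with earlier results of these data known. At 1 Hz 8 of the 81 were upregulated and 8 downregulated, at 4 Hz 12 and 13, and at 10 Hz none by edgeR or DESeq2. An unadjusted p under 0.05 was reached at 10 Hz by 8 of the 81, beside 1074 of all 13315 tested genes. On the log2 scale the median of the 81 differences was -0.03 (1 Hz), -0.02 (4 Hz) and 0.04 (10 Hz), beside 0.04, 0.06 and 0.01 over all genes. As shares, 9.88% in each direction at 1 Hz and 14.8% and 16% at 4 Hz stand beside 7.19% higher and 7.74% lower, and 12.8% and 12.3%, of all tested genes. Leaving out the libraries high in mitochondrial counts gave 9 higher and 5 lower at 1 Hz and 13 and 16 at 4 Hz, and on log2(TPM + 1) 2 were higher and 10 lower at 1 Hz and 2 and 26 at 4 Hz.

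Of 11 tested surface and secretion regulators, 2 fell at 1 Hz and at 4 Hz, and 1 rose at 4 Hz. The lower genes were 18.2% of the list at each frequency, beside 7.74% and 12.3% of all genes, and the higher gene was 9.09% beside 12.8%. The count of higher genes was 0 with the stricter filter, with only the groups compared and on the TPM scales. There the higher gene, Wif1, was too low to be tested, so these are not negative tests of it. The count was 2 with DESeq2 or no filter, while 1 was lower at each frequency with the stricter filter or on log2(TPM + 1). Lgr6, an R-spondin receptor, ran from 3.21 to 6.12 (median 3.94) CPM in the Control tissues, from 1.07 to 3.12 (median 2.08) at 1 Hz, from 1.25 to 1.67 (median 1.45) at 4 Hz and from 2.73 to 5.35 (median 4.54) at 10 Hz. Znrf3, a ubiquitin ligase that removes frizzled receptors from the membrane and is itself a target of beta-catenin, ran from 20.2 to 24.8 (median 22.2) CPM in the Control tissues, from 8.35 to 16.4 (median 11) at 1 Hz, from 7.16 to 14.2 (median 12.5) at 4 Hz and from 14.5 to 26.6 (median 22.4) at 10 Hz. For both, the 1 and 4 Hz libraries all lay below the Control range. Lgr6 changed by -1.04 ± 0.20 (SE, adjusted p = 0.000239) at 1 Hz and -1.53 ± 0.21 (SE, adjusted p = 2.6e-06) at 4 Hz, on the log2 scale, and missed the p threshold on log2(TPM + 1) at both (adjusted p = 0.0572 and 0.0564). Znrf3 changed by -0.96 ± 0.16 (SE, adjusted p = 6.39e-05) and -0.96 ± 0.16 (SE, adjusted p = 3.85e-05). Wif1, a secreted inhibitor, had 0.319 to 0.676 (median 0.486) CPM in the Control tissues and 0.509 to 1.52 (median 0.965) at 4 Hz. Wif1 rose by 1.04 ± 0.32 (SE, adjusted p = 0.0092) at 4 Hz. Every Control library was under the CPM that the filter on low counts asked for, so only stimulated libraries brought Wif1 into the test. Leaving out each library in turn gave 0.85 to 1.16 at 4 Hz, with adjusted p up to 0.0408. Wif1 was not called at 1 Hz (0.47 ± 0.33, adjusted p = 0.27) or 10 Hz (0.59 ± 0.33, adjusted p = 0.695), where medians were 0.602 and 0.790 CPM.

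Among 21 tested members of the destruction complex and its transducers, 3 rose and 1 fell at 1 Hz, and 2 rose and 2 fell at 4 Hz. That is 14.3% and 4.76% at 1 Hz and 9.52% each at 4 Hz, beside 7.19% and 7.74%, and 12.8% and 12.3%, of all genes. On both TPM scales 8 were lower at 4 Hz, and leaving out the libraries high in mitochondrial counts gave 3 higher and 0 lower at 1 Hz and 3 and 3 at 4 Hz. Dact1, which binds Dishevelled, ran from 1.33 to 3.10 (median 1.95) CPM in the Control tissues, from 5.01 to 9.18 (median 6.60) at 1 Hz, from 5.29 to 9.34 (median 6.37) at 4 Hz and from 1.90 to 4.22 (median 2.60) at 10 Hz. Its 1 and 4 Hz libraries all lay above the Control range, with a log2(fold change) of 1.74 ± 0.21 (SE, adjusted p = 8.01e-07) at 1 Hz and 1.72 ± 0.21 (SE, adjusted p = 4.66e-07) at 4 Hz. Frat2, which binds Gsk3, ran from 1.98 to 4.44 (median 2.94) CPM in the Control tissues, from 3.67 to 12.7 (median 6.45) at 1 Hz, from 4.87 to 9.05 (median 8.06) at 4 Hz and from 1.54 to 4.78 (median 2.91) at 10 Hz. For Frat2 the log2(fold change) was 1.19 ± 0.27 (SE, adjusted p = 0.00138) at 1 Hz and 1.29 ± 0.27 (SE, adjusted p = 0.000419) at 4 Hz, and only the 4 Hz libraries all lay above the Control range. Amer1, which binds Apc, was the other gene called higher at 1 Hz, at 0.50 ± 0.19 (SE, adjusted p = 0.0436), and was named after its value was seen. Apc, the tumour suppressor of the complex, changed by -0.55 ± 0.17 (SE, adjusted p = 0.0162) at 1 Hz and -0.70 ± 0.17 (SE, adjusted p = 0.00191) at 4 Hz, and its 1 Hz call was lost without 1 Hz replicate 4 (-0.46) or 6 (-0.50), and without the 4 libraries high in mitochondrial counts (-0.32, adjusted p = 0.172). The 1 Hz value of Apc was also under the size threshold with DESeq2 with apeglm (-0.463). Dvl3, a Dishevelled protein, changed by -0.53 ± 0.12 (SE, adjusted p = 0.000845) at 4 Hz and by -0.43 ± 0.12 (SE, adjusted p = 0.00697) at 1 Hz. The 4 Hz call of Dvl3 was lost without 4 Hz replicate 1 (-0.48), and it passed at 1 Hz without 1 Hz replicate 5 (-0.53).

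Of 16 tested nuclear cofactors, 0 were called by edgeR at 1 Hz. There 5 had an unadjusted p under 0.05, beside 6241 of all 13315 tested genes. By adjusted p alone 2 were lower at 1 Hz, beside 18.1% of all genes. At 4 Hz 3 cofactors fell (18.8%, beside 12.3% of all genes). These were the acetyltransferase Ep300 with a log2(fold change) of -0.73 ± 0.22 (SE, adjusted p = 0.00772), the deacetylase Hdac1 with -0.53 ± 0.11 (SE, adjusted p = 0.000324) and the remodeller Chd8 with -0.52 ± 0.12 (SE, adjusted p = 0.000887). Hdac1 came under the size threshold without the libraries high in mitochondrial counts (-0.49), and Chd8 without Control replicate 5 (-0.49) or with upper-quartile factors (-0.49). At 1 Hz Ep300, at -0.54 ± 0.22 (SE, adjusted p = 0.0534), lay at the threshold: it passed without 1 Hz replicate 1 (-0.65) or 5 (-0.69), with upper-quartile factors (-0.52, adjusted p = 0.0477), with the stricter filter (-0.55, adjusted p = 0.0424) and with DESeq2 (-0.54, adjusted p = 0.0313). On the TPM scales 2 cofactors were lower at 1 Hz and 6 and 7 at 4 Hz, and leaving out the libraries high in mitochondrial counts gave 1 higher at 1 Hz and 4 lower at 4 Hz.

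Of 25 tested genes of the planar polarity and calcium branch, 3 rose and 3 fell at 1 Hz, and 5 rose and 4 fell at 4 Hz. The shares of 12% each at 1 Hz and 20% and 16% at 4 Hz stand beside 7.19% and 7.74%, and 12.8% and 12.3%, of all genes. The number of higher genes at 1 and 4 Hz was 0 and 0 on the TPM scales, 0 and 1 with the stricter filter, 1 and 3 with no filter or with only the groups compared, and 2 and 3 with DESeq2. At 4 Hz 9 were lower on the TPM scales and 2 with upper-quartile factors. Leaving out the libraries high in mitochondrial counts gave 4 higher and 2 lower at 1 Hz and 5 and 5 at 4 Hz. Camk2a, a calcium/calmodulin kinase, ran from 83.0 to 103 (median 88.6) CPM in the Control tissues, from 44.8 to 65.0 (median 61.1) at 1 Hz, from 57.7 to 74.0 (median 66.2) at 4 Hz and from 65.3 to 75.4 (median 71.3) at 10 Hz. Its libraries at 1, 4 and 10 Hz all lay below the Control range, with a log2(fold change) of -0.60 ± 0.08 (SE, adjusted p = 3.04e-06) at 1 Hz, -0.44 ± 0.08 (SE, adjusted p = 7.32e-05) at 4 Hz, under the size threshold, and -0.34 ± 0.08 (SE, adjusted p = 0.0999) at 10 Hz, not called. Invs, a polarity and cilium gene, changed by -1.06 ± 0.20 (SE, adjusted p = 0.000251) at 1 Hz and -1.03 ± 0.21 (SE, adjusted p = 0.000244) at 4 Hz, and missed the p threshold at 1 Hz on the TPM scales (adjusted p = 0.0535 and 0.0514). Prickle1, a core polarity protein, rose by 0.64 ± 0.10 (SE, adjusted p = 5.71e-06) at 4 Hz, with 0.45 ± 0.10 (SE, adjusted p = 0.000727) at 1 Hz, and was not called on the TPM scales. Without the 4 libraries high in mitochondrial counts Prickle1 passed at 1 Hz as well (0.56). Daam2, a formin, changed by -0.50 ± 0.10 (SE, adjusted p = 0.000246) at 1 Hz and -0.52 ± 0.10 (SE, adjusted p = 0.000109) at 4 Hz, values so close to the size threshold that the 1 Hz call was lost without Control replicate 6, 1 Hz replicate 4 or 1 Hz replicate 6, and the 4 Hz call without 4 Hz replicate 1, at -0.46 to -0.49, and the 1 Hz call also without the 4 libraries high in mitochondrial counts (-0.35). With upper-quartile factors the Daam2 call was lost at both 1 Hz (-0.486) and 4 Hz (-0.485). Its 1 Hz call was also lost with only the groups compared (-0.498) and with DESeq2 with apeglm (-0.488). The other called genes, named after their values were seen, were Celsr3, Prickle2 and Nfatc4, higher at both frequencies, Prickle3, higher at 4 Hz, and Nfatc1 and Plcb4, lower at 4 Hz.

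On the count scale the textbook targets of beta-catenin were called in both directions. Of 15 tested, 3 rose (Axin2, Bambi and Tnfrsf19) and 5 fell (Ccn4, Ccnd1, Lef1, Tcf7 and Znrf3) at 1 Hz, and at 4 Hz the same 8 were joined by Myc and Jun, both higher. These are 20% and 33.3% of the list at 1 Hz and 33.3% each at 4 Hz, beside 7.19% and 7.74%, and 12.8% and 12.3%, of all genes. On both TPM scales 0 were higher at either frequency, with the stricter filter 1 and 3, and without the libraries high in mitochondrial counts 2 were higher and 3 lower at 1 Hz and 5 and 5 at 4 Hz. Targets not described in full were named after their values were seen. Ccn4, a secreted matrix protein also known as Wisp1, ran from 61.7 to 99.5 (median 76.4) CPM in the Control tissues, from 21.0 to 52.0 (median 41.5) at 1 Hz, from 22.4 to 41.1 (median 31.7) at 4 Hz and from 67.7 to 95.6 (median 83.4) at 10 Hz. Ccnd1, which encodes cyclin D1, ran from 101 to 139.6 (median 116) CPM in the Control tissues, from 67.6 to 98.7 (median 78.2) at 1 Hz, from 76.2 to 87.2 (median 82.3) at 4 Hz and from 98.6 to 125 (median 114) at 10 Hz. For both the 1 and 4 Hz libraries all lay below the Control range, and the 10 Hz libraries overlapped it. Ccn4 changed by -1.02 ± 0.18 (SE, adjusted p = 0.000134) at 1 Hz and -1.29 ± 0.18 (SE, adjusted p = 5.22e-06) at 4 Hz, and Ccnd1 by -0.59 ± 0.09 (SE, adjusted p = 3.29e-05) and -0.56 ± 0.09 (SE, adjusted p = 3.36e-05). Without the 4 libraries high in mitochondrial counts Ccnd1 was at -0.47 at 1 Hz and no longer called. The median of the 15 was 0.07 at 1 Hz and -0.0026 at 4 Hz on the log2 scale, beside 0.04 and 0.06 over all genes. Of these 15, Axin2, Lef1, Tcf7 and Fzd7 are also members, and Tcf7 and Lef1 are themselves factors of the pathway.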

How the data were processed

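RNA was sequenced from 24 wells of mouse C2C12 muscle tissue, 6 in each of 4 groups, as poly(A) libraries with a directional kit. The labels add that samples of low input were ribodepleted, without naming them. The authors ran nf-core/rnaseq with Salmon on GRCm39 with the Ensembl annotation and deposited estimated counts per gene, which need not be whole. They also deposited TPM, computed by Salmon from the same reads. The submitters' processing notes list BWA 0.7.12-r1039, bedtools 2.25.0, STAR and Salmon, and also the builds mm10 and hg19, without their role. Whether reads were counted by strand is not given in the sources used here.

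Here the counts were rounded and fitted in R 4.3.3 with edgeR 4.0.16 (robust quasi-likelihood, TMM, all 24 libraries), after a filter on low counts. A gene had to reach the CPM that 10 counts make in a library of median depth. It had to do so in a group's worth of libraries, drawn from any groups, and to have 15 counts in total. With 13315 genes tested, a call needed both a p below 0.05 after Benjamini-Hochberg adjustment and a log2(fold change) beyond 0.5 in either direction. The biological coefficient of variation was 14.78%. Alternatives were other size factors and filters, fits of only the groups compared, a replicate block, DESeq2 1.42.0 with and without apeglm 1.24.0, limma 3.58.1 on log2(TPM + 1) and log2(TPM + 0.1) for genes with a TPM of at least 1, no fold threshold, and each library left out. Leaving out the libraries over 3% mitochondrial counts, and running the alternatives on the further pathway genes, were chosen after seeing the data. The fit was tested on simulated data. No 2 libraries of a group agreed within sampling noise.

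The members and all lists were chosen with earlier results of these data known. Members were described in full when called against Control or among the 3 highest of their family in mean TPM, and up to 4 called genes of each further list were named, by smallest p. Sfrp3 is annotated as Frzb and was not matched by symbol. Since the wells came from a single cell line, p-values measure the spread between wells.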

Additional observations from a re-analysis of the deposited data

Results flagged for a closer look

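A library stood apart from the other 5 of its group, by Dixon's test on the gap to the nearest library, in 8 of 96 groups of a described Wnt gene, where chance flags about 1 in 20. Replicate 3 at 1 Hz accounted for 3 of them, with 5.53 CPM of Dkk2 (nearest 2.68), 8.63 CPM of Wnt10b (nearest 6.24) and 9.40 CPM of Wnt11 (nearest 6.99). Sfrp2 stood out in replicate 2 of the Control tissues at 10.6 CPM (nearest 5.78) and in replicate 2 at 1 Hz at 8.47 CPM (nearest 4.54). The remaining 3 were Axin1 in Control replicate 3 at 73.9 CPM (nearest 80.3), Fzd3 in 1 Hz replicate 6 at 6.34 CPM (nearest 4.98) and Fzd2 in 10 Hz replicate 4 at 26.4 CPM (nearest 30.4). Replicate 6 at 1 Hz is among the libraries over 3% mitochondrial counts, and without those the Fzd3 call at 1 Hz remained.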

How the results depend on the processing

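The counts of called members kept within 1.5 times of those reported under other size factors, other filters on low counts, fits of only the groups compared, a replicate block and DESeq2. On limma with log2(TPM + 1) and log2(TPM + 0.1), in that order, the count of Wnt genes higher than Control was 1 and 2 at 1 Hz and 0 and 2 at 4 Hz, and that of lower genes 10 and 11 at 1 Hz, and with the second pseudocount 14 at 4 Hz. There, 0 and 1 were lower at 10 Hz than at 1 Hz, and 1 and 1 lower than at 4 Hz, with 12 higher than at 4 Hz on the second. Without a fold threshold 10 were lower at 1 Hz than in Control, and 10 and 12 were higher at 10 Hz than at 1 and 4 Hz. Without the libraries over 3% mitochondrial counts, 1 was lower at 4 Hz than at 1 Hz.

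Of the other pathway genes, 4 were higher at 1 Hz with no filter, 2 with the strict filter, 5 with only the groups compared, 2 and 2 on the TPM scales and 17 with no fold threshold, and 16 were lower with no fold threshold and 5 without the libraries high in mitochondrial counts. At 4 Hz, 5 were higher with the strict filter, 2 and 2 on the TPM scales and 21 with no fold threshold, and 26 and 28 were lower on the TPM scales and 26 with no fold threshold. Leaving out each library gave 5 to 10 higher at 1 Hz. The strict filter tests fewer genes, and otherwise the cause was not tested.

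Signs reversed for genes near 0 on the log2 scale. On log2(TPM + 1) and log2(TPM + 0.1) the values were -0.24 and -0.25 for Axin1 at 1 Hz, -0.075 and -0.12 for Dkk2 at 4 Hz, -0.067 and -0.072 for Fzd6 at 1 Hz, -0.14 and -0.15 for Fzd7 at 1 Hz, -0.22 and -0.23 for Fzd7 at 4 Hz, -0.082 and -0.085 for Lrp5 at 1 Hz, and -0.033 and -0.035 for Lrp5 at 4 Hz. With no filter Axin1 was at -0.00056 and Lrp5 at -0.016 at 1 Hz, and with upper-quartile factors Fzd6 was at 0.0063 at 4 Hz. Leaving out each library gave -0.016 to 0.059 for Axin1, -0.072 to 0.38 for Dkk2, -0.017 to 0.14 for Fzd7 and -0.068 to 0.058 for Lrp5 at 1 Hz, and -0.0078 to 0.26 for Dkk2 and -0.091 to 0.017 for Fzd6 at 4 Hz. As summed CPM over the Control mean, the ligands came to 0.781 at 4 Hz, the frizzled genes to 1.02 at 1 Hz and 1.01 at 4 Hz, and the Dkk genes to 1.23 at 4 Hz.

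Libraries of the same replicate number did not deviate together (correlations from -0.332 to 0.242 over 36 pairs, and 0 of 24 libraries matched best with their own number). No pairing by number was seen, although such a check cannot exclude a weak one. With the replicate block the Wnt genes numbered 4 higher and 7 lower at 1 Hz and 4 higher and 9 lower at 4 Hz. The block also called Fzd9 at 1 Hz and Sfrp2 at 4 Hz. Of the members described in full, low counts limit Dkk2, Dkk3, Fzd9, Lef1, Sfrp2, Sfrp4, Wnt10b and Wnt7b, whose medians were under 5 CPM in the Control tissues.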
